A study of Mus musculus with 72 samples.

Results

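Met Zeb2 Pet1 neurons are a small group of cells in the 10X single-cell RNA-seq table of mouse dorsal raphe Pet1 neurons. Members were chosen by 1 rule: at least 4 UMIs (unique molecular identifiers, each counting 1 captured transcript) of Met and Zeb2 together, with at least 1 UMI of each gene. The rule found 110 of 2350 cells, which is 4.68% (exact binomial interval 3.86 to 5.61% at 95%). Because the measured values of Met and Zeb2 chose the cells, the levels of both genes are given only as a description. Every other gene of the same cells is also a description, because the cells belong to 1 table whose columns carry no animal, so that no test between cells was possible.

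Pet1 (Fev) is the transcription factor that marks neurons of the serotonergic lineage, most of which make serotonin. The dorsal raphe nucleus, beneath the aqueduct of the midbrain, holds the largest group of these cells and sends serotonergic fibers to much of the forebrain. Met encodes the receptor tyrosine kinase that binds hepatocyte growth factor (HGF) and is known for roles in axon growth and synapse formation. Zeb2 encodes a zinc-finger transcription factor that binds SMAD proteins, recruits repressor complexes to paired E-box motifs and acts in the specification of many neuron types.

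The 10X cells were pooled from 2 runs of fluorescently sorted neurons. The genotypes were Pet1::Flpe+/-; hM3Dq+/+ in run 1, at a mean age of postnatal day 65.5, and En1::cre+/-;Pet1::Flpe+/-;RC::FrePe+/- in run 2, at a mean age of postnatal day 59. A second experiment collected 70 single cells by hand after microdissection, all from mice that carried a Cre driver, Pet1::Flpe+/- and RC::FrePe+/-, an allele that labels cells in which both recombinases have acted. Among these, 10 cells came from P2ry1::cre+/- mice and the caudal dorsal raphe (cDR), at 5 postnatal ages between day 62 and day 74. The other 60 cells came from Slc6a4-cre mice (the labels write Sert; 33 cells from the dorsolateral, dorsomedial, ventromedial and caudal raphe), Npy2r-cre mice (10 caudal and 9 rostral cells) and Crh-cre mice (8 rostral cells). Ages differed with the driver, at day 63 or 90 for Slc6a4-cre cells (day 63 for all 6 caudal ones) and day 77 or 87 for Npy2r-cre cells. Crh-cre cells were of day 83 or 119. Only the 21 Slc6a4-cre cells of day 63 lie within the ages of the P2ry1-cre cells, of which 1 was itself of day 63. These 21 cells came from several dissected regions, so driver, age and region cannot be fully told apart. Each label records recombination at any time in the cell's past, so a labeled cell need not express the driver gene when collected, and the labels name no animal for any cell.

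The ending of the 10X barcodes divides the cells into barcode set 1 (869 cells) and barcode set 2 (1481 cells), and which run a set stands for is not stated. Members made up 5.06% of set 1 (44 cells, interval 3.70 to 6.74%) and 4.46% of set 2 (66 cells, interval 3.46 to 5.64%), so both sets held them at shares whose intervals overlap. No barcode was shared between the sets. Members were shallower than the other 2240 cells, with a median of 45765.5 against 60493.5 UMIs, and a median of 7167 against 7757 genes. After thinning each cell to 20000 UMIs, which left out 3 members and 50 other cells, the median was 5151 genes in members and 5123.5 in the others. Scrublet called 14 cells of the table doublets, 2 of them members.

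Met was counted at 1 to 16 UMIs per member (median 6.5), Zeb2 at 3 to 28 (median 10) and both together at 4 to 34 (median 17). Of the other 2240 cells, 2167 held neither transcript, and 1 held a UMI of each. The members nearest the threshold held 1 Met and 3 Zeb2 UMIs, then 1 and 4. The nearest cells outside held no Met and 8, 5 and 4 Zeb2 UMIs, or 3 Met and no Zeb2 UMIs. The plot of Met against Zeb2 shows few cells near the threshold. The members were also described by 4 further markers, namely Tacr3, Tecrl, Arhgap15 and P2ry1. These markers were chosen with earlier results of the same cells known, so their counts are no test of the label. Of the 110 members, 43 held UMIs of all 4, 44 of 3, 16 of 2 and 7 of 1, and no member lacked all. Among the other cells, 1908 held none, 317 held 1, 12 held 2 and 3 held 3.

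**Figure D1:**
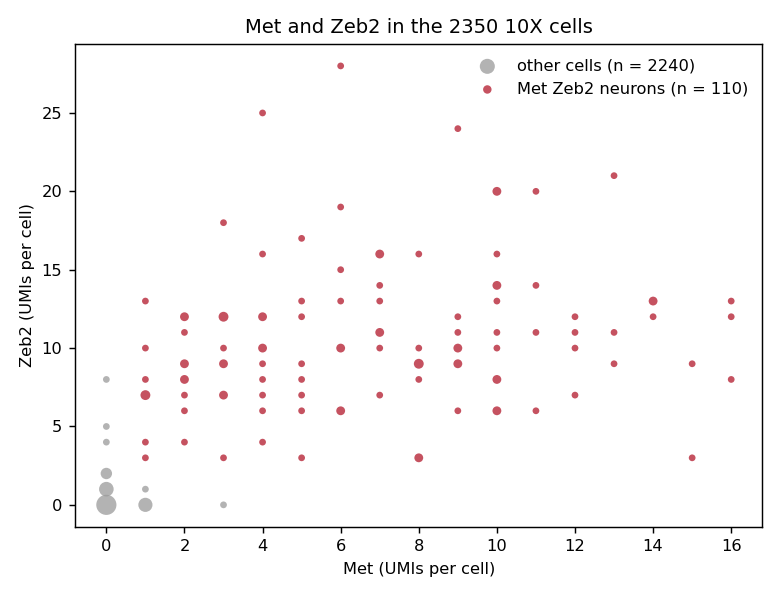
UMIs of Met (horizontal axis) and Zeb2 (vertical axis) in the 2350 cells of the 10X table; a point is a pair of values, and its area grows with the number of cells. The 110 members (red) reach 16 Met and 28 Zeb2 UMIs, and 4 other cells (grey) hold 3 or more UMIs of both genes together.

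Levels are given as CPM, the counts of a gene per 1e6 counts, here of the UMIs summed over a group of cells, and differences as log2 ratios of members to the other cells, with 95% intervals that cover counting error only. In all, 10289 genes reached 5 CPM in either group. Of these, 351 (3.41%) were at least 2-fold higher and 714 (6.94%) at least 2-fold lower in members. At least 4-fold higher were 118 (1.15%), Met and Zeb2 among them, and at least 4-fold lower were 341 (3.31%). The median log2 ratio over all 10289 genes was 0.07. Met and Zeb2 left out, 113 of the 116 higher genes were at least 2-fold higher in each barcode set taken alone, and 340 of the 341 lower genes at least 2-fold lower. The sets differed in Xist, the RNA of the inactive X chromosome, which was at 458 CPM in the members of set 1 and at 0 in those of set 2, so a comparison between sets is also one between mice of different sex.

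**Figure D2:**
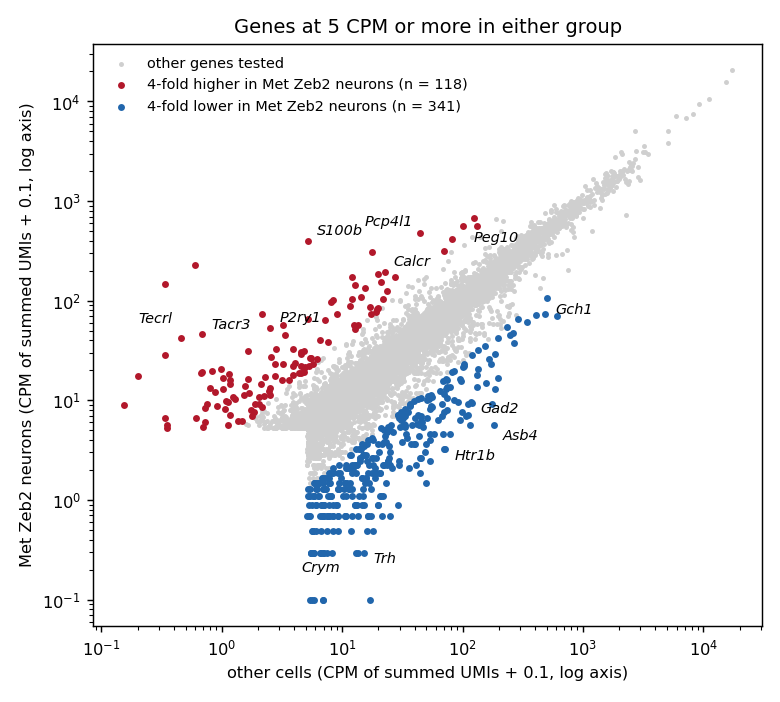
CPM of summed UMIs plus 0.1 in the other cells (horizontal) and in Met Zeb2 neurons (vertical), both on log axes, for the 10289 genes at 5 CPM or more in either group. The 118 genes at least 4-fold higher (red) lie above the diagonal and the 341 at least 4-fold lower (blue) below it.

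Among the markers, Tecrl, a trans-2-enoyl-CoA reductase-like protein best known from heart muscle, was at 42.4 CPM in members and 0.360 CPM in other cells, a log2 ratio of 6.88 (6.42 to 7.37). Tacr3, the receptor for neurokinin B, was at 46.1 against 0.590 CPM, a ratio of 6.29 (5.91 to 6.68). Arhgap15, a GTPase-activating protein for Rac, was at 28.4 against 0.238 CPM, a ratio of 6.90 (6.33 to 7.51). P2ry1, the ADP receptor P2Y1, was at 53.4 against 2.43 CPM, a ratio of 4.46 (4.22 to 4.70). All 4 were thus low in the summed RNA of the other cells. In cells thinned to 20000 UMIs, Tacr3 was detected in 52.3% of members and 0.868% of others, and P2ry1 in 54.2% and 4.75%.

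Beyond the markers, the genes that led the ratios at 10 CPM or more were Zeb2os at 7.46 (17.5 against 0.0996 CPM), the antisense partner of Zeb2, whose reads cannot be told apart from those of Zeb2 if strand was not used in counting, and S100b at 6.31. S100b encodes a small calcium-binding protein best known from astrocytes, and was at 402 CPM in members and 5.07 CPM in other cells. S1pr3, Cd36 (a fatty acid transporter), Clrn1, Lonrf3, Ptcra, Rtn4rl1, Kirrel, Rxfp1 and Gipr followed, at log2 ratios from 5.18 down to 4.19. Ptcra rested on 6 members, of which 1 gave 46.7% of its 105 UMIs, and its ratio was 4.54 with that cell and 3.63 without it. The size of some ratios also rested on 1 barcode set. Cd36 was at 2.72 in set 1 and 5.48 in set 2, Ptcra at 2.98 and 5.43, Rtn4rl1 at 5.26 and 3.95, Rxfp1 at 5.34 and 3.89, and Tacr3 at 7.40 and 5.94, all of them higher in members in both sets. At the other end stood Trh at −6.27, Crym at −6.10, Nts at −6.04, Sema5a at −5.51, Nos1 at −5.38, Sln at −5.33, Sst at −5.21, Gabrq and Gad1 at −5.17, Asb4 at −5.04 and Gal at −4.90. Their size too moved between sets, as for Asb4 (−5.94 in set 1 and −4.66 in set 2) and Nos1 (−4.52 and −6.30), and for Crym, Sema5a, Gal, Sst, Gabrq, Trh and Nts 1 of the sets held no UMI in members, so that its ratio there is only a bound. Trh, Nts and Crym rested on 1 UMI each in the 110 members, so their intervals were wide, as for Trh from −11.57 to −3.79.

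The receptors for peptides, purines and lipids included the markers Tacr3 and P2ry1. Of 16 list members tested among 30 listed, 9 were at least 2-fold higher and 4 at least 2-fold lower, with a median log2 ratio of 1.50, beside 3.41% and 6.94% of all genes and an overall median of 0.07. Tacr3, P2ry1, S1pr3, Rxfp1 and Oprm1 reached 5 CPM in members only, and Npy2r, Crhr2, Cnr1 and Oxtr in the other cells only, so these 9 had to differ to be tested, and the counts of this and the other lists are descriptions. S1pr3, a receptor for sphingosine 1-phosphate, was at 73.7 against 2.04 CPM, a ratio of 5.18 (4.95 to 5.41). Rxfp1, the relaxin receptor, was at 57.2 against 3.13 CPM, a ratio of 4.19 (3.97 to 4.41). Oprm1, the mu opioid receptor, was at 18.1 against 1.05 CPM, a ratio of 4.11 (3.71 to 4.50). Calcr, the calcitonin receptor, was at 195 against 22.5 CPM, a ratio of 3.12 (3.01 to 3.22), and the thinned shares were 94.4% of members and 21.2% of others. Its accessory proteins differed from it and from each other, with Ramp2 at 1.94 and Ramp3 at 1.07, whereas the interval of Ramp1 (0.12, −0.40 to 0.60) covered 0. Lpar1, a receptor for lysophosphatidic acid, was at 2.66. Adcyap1r1 (−0.04) and Oprl1 (−0.05) were at like levels in both groups. Crhr2 (−2.54), Oxtr (−3.04), Cnr1 (−3.25) and Npy2r (−4.41) were lower, each with 10 or fewer UMIs in all members together. Gipr, the receptor for the incretin GIP, was on no list and stood at 4.19 (16.8 against 0.920 CPM).

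The receptors for serotonin, noradrenaline, histamine, orexin and acetylcholine formed a list of their own. Of 16 tested, 9 were at least 4-fold lower and 2 at least 4-fold higher, with a median of −2.25, beside 3.31% of all genes 4-fold lower and 1.15% 4-fold higher. The autoreceptor gene Htr1b was at 3.15 against 71.5 CPM, a log2 ratio of −4.50 (−5.31 to −3.80), and Htr1d at 0.591 against 16.3 CPM (−4.79). The orexin receptor genes Hcrtr1 (3.15 against 69.6 CPM, −4.46) and Hcrtr2 (−2.46) were lower, as were the histamine receptor genes Hrh1 (−3.33) and Hrh3 (−2.03), the adrenergic receptor genes Adra2a (−3.30) and Adra1a (−3.09), and Htr1f (−3.13). Hcrtr1 was at −7.13 in set 1 and −3.83 in set 2, Adra2a at −4.95 and −2.78, and Htr1b at −5.23 and −4.25. Several receptors stayed within 2-fold: Htr1a, the main somatodendritic autoreceptor, at −0.76 (53.6 against 90.7 CPM), Adra1b at −0.31 (134 against 166 CPM), Adra2c at −0.41 and Htr5b at −0.35. Htr2c, at −0.21 (−0.77 to 0.31), had opposite signs in the barcode sets. The muscarinic receptor genes Chrm2, at 97.8 against 7.97 CPM (3.62, 3.46 to 3.77), and Chrm1, at 8.48 against 2.05 CPM (2.05, 1.55 to 2.52), were the 2 higher ones. After thinning, Chrm2 was detected in 83.2% of members and 12.2% of others, and Htr1b in 3.74% and 68.1%. Shares as low as that of Htr1b were not read as expression. Whether such UMIs came from free RNA in droplets or from mixed cells was not tested. The ratio of Htr1b moved further down when the called doublets were left out.

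**Figure D3:**
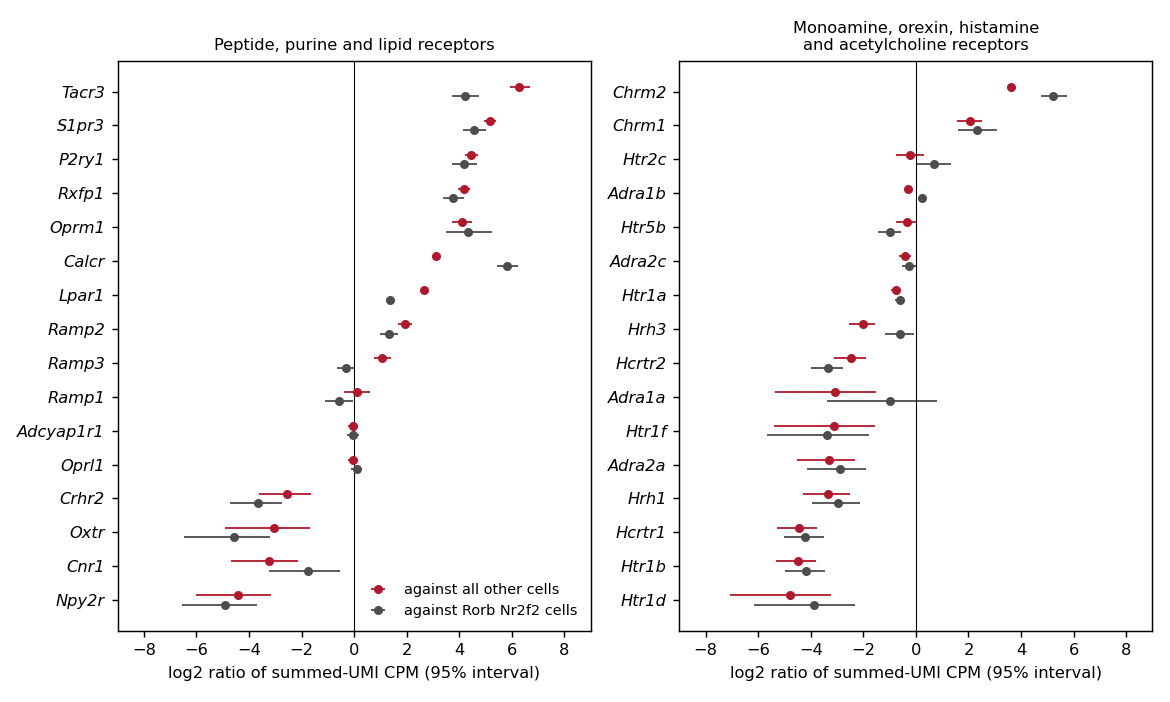
Log2 ratio of summed-UMI CPM, with its 95% counting interval, for the 16 tested receptors of each list, for members against all other cells (red) and against the 234 Rorb Nr2f2 cells (grey); a ratio above 0 is higher in members. Tacr3 (6.29) and Chrm2 (3.62) stand at the top of their panels and Npy2r (−4.41) and Htr1d (−4.79) at the bottom.

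Ion channels and transmitter receptors differed gene by gene. Of 34 potassium channel genes of the list, 3 were at least 2-fold higher and 11 lower, beside 3.41% and 6.94% of all genes. The higher ones encode subunits of A-type channels: Kcna4 (Kv1.4) at 144 against 12.6 CPM (3.51, 3.39 to 3.64), Kcnd2 (Kv4.2) at 416 against 82.2 CPM (2.34, 2.27 to 2.40) and Kcnd3 (Kv4.3) at 103 against 42.2 CPM (1.29). Kcnmb2, a beta subunit of calcium-activated channels that is not on the list and was picked after its values were seen, was higher still in ratio (16.0 against 1.07 CPM, 3.90). The lower ones included Kcnab1, a beta subunit of Kv1 channels (−3.77), Kcnc2 (−2.78), Kcnip1, a Kv4 partner (−2.51), and the subunits of the G protein-gated channel Kcnj3 (−1.68) and Kcnj6 (−1.53). Of 27 genes for sodium, calcium, HCN and acid-sensing channels, 3 were at least 2-fold higher, among them the T-type calcium channel gene Cacna1g (15.8 against 3.04 CPM, 2.37) and Cacna2d3 (1.39), and 7 lower, among them Scn9a (25.8 against 165 CPM, −2.67), Asic2 (−2.69) and the other T-type genes Cacna1h (−1.54) and Cacna1i (−4.05). The medians of the 2 lists were −0.34 and −0.18.

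Of 30 receptor genes for GABA, glycine and glutamate, 4 were at least 2-fold higher and 10 lower (median −0.25), beside 3.41% and 6.94% of all genes. The metabotropic glutamate receptor gene Grm5 was at 154 against 21.0 CPM (2.87, 2.75 to 2.99). Gabra2, an alpha subunit gene of the GABA-A receptor, was at 174 against 49.1 CPM (1.83). The glycine receptor genes Glra2 (5.52 against 116 CPM, −4.40) and Glra1 (−2.63) were lower, as were the GABA-A subunit genes Gabrq (−5.17), Gabre (−5.03) and Gabrg3 (−3.78, but −4.78 in set 1 alone).

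Genes that bind or handle calcium split as well. Of 27 tested, 7 were at least 2-fold higher and 10 lower (median −0.13), beside 3.41% and 6.94% of all genes. Besides S100b, the higher genes were Pcp4l1, a relative of the calmodulin-binding protein PCP4 (481 against 44.2 CPM, 3.44), the ryanodine receptor genes Ryr3 (2.75) and Ryr2 (126 against 23.5 CPM, 2.42), Camk2d (556 against 133 CPM, 2.07), Plcb4 (1.63) and Itpr1 (1.43). The lower genes included the plasma membrane calcium pump genes Atp2b4 (4.53 against 68.7 CPM, −3.92) and Atp2b1 (133 against 439 CPM, −1.73), the buffers Calb1 (−2.22) and Calb2 (−1.35, but −0.67 in set 1 alone), Camk2a (−2.06) and Vsnl1 (203 against 753 CPM, −1.89). Necab1 was at −1.62 against all other cells but at 1.34 against the Rorb Nr2f2 cells.

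The serotonergic program was present in members, at lower levels for several genes. Fev was at 282 against 338 CPM (−0.26), Lmx1b at −0.46, En1 at −0.25 and Gata3 at 0.32, whereas En2 was at 4.34 against 43.2 CPM (−3.32). Of 13 genes for serotonin synthesis and handling, none was 2-fold higher and 3 were at least 2-fold lower (median −0.49), beside 3.41% and 6.94% of all genes. Tph2, the rate-limiting enzyme, was at 1743 against 2882 CPM (−0.73, −0.76 to −0.70), and was detected after thinning in 100% of members. Slc6a4, the serotonin transporter, was at 717 against 2285 CPM (−1.67, −1.72 to −1.62). Gch1, which makes the cofactor tetrahydrobiopterin together with Pts and Spr, was at 106 against 500 CPM (−2.24, −2.36 to −2.11), Pts at −1.07 and Spr at 0.37. The vesicular transporter gene Slc18a2 (−0.67), Ddc (−0.31) and Maob (−0.30) were within 2-fold.

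Of 29 transcription factor genes known to vary among Pet1 subtypes, 7 were at least 2-fold higher and 17 lower (median −2.05), beside 3.41% and 6.94% of all genes. The higher ones were Lmo1 (32.9 against 2.71 CPM, 3.60), the orphan nuclear receptor genes Nr2f1 (16.2 against 1.55 CPM, 3.38) and Nr2f2 (134 against 15.5 CPM, 3.11), Tox3 (73.9 against 9.02 CPM, 3.03), the coactivator Cited1 (677 against 125 CPM, 2.44), Arid5b (1.99) and Maf (1.12, but 0.57 in set 2 alone). The lower ones included Foxa1 (−4.86), Pax5 (1.77 against 44.6 CPM, −4.65), Bcl11a (−4.65), Dach1 (−3.30), Zbtb20 (69.6 against 608 CPM, −3.13), Rorb (−2.89) and Zeb1, the paralog of Zeb2 (11.2 against 54.9 CPM, −2.29, −2.69 to −1.91). Rorb was at −4.85 in set 1 and −2.47 in set 2, and Dach1 at −4.28 and −2.97. Foxa1 rested on 1 UMI in set 2, and no UMI in set 1 bounds it there at −1.49 only. Of the 11 nuclear hormone genes tested none was 2-fold higher and 5 were lower, beside 3.41% and 6.94% of all genes. The lower ones included the glucocorticoid receptor gene Nr3c1 (42.0 against 198 CPM, −2.24), Esr2 (−2.95) and Crym, a thyroid hormone-binding protein.

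Partners of MET and ZEB2 were taken as further lists, whose counts were near the shares of all genes (3.41% higher and 6.94% lower) and are no result about the lists. Of 14 tested genes of the HGF and MET pathway, which include the adaptors Grb2 (−0.01), Crk (0.11) and Sos1 (0.28) and the phosphatase gene Ptpn11 (0.54), 1 was past 2-fold, namely Spint2, an inhibitor of the proteases that activate HGF (34.3 against 90.7 CPM, −1.40). Hgf itself was below 5 CPM in both groups and was counted at 8 UMIs in 8 members and at 5 UMIs in all other cells. None of 16 tested partners of ZEB2 was past 2-fold. These include Chd4 (0.53) and Rbbp4 (0.36) of the NuRD complex, the corepressor genes Ctbp2 (0.44) and Ctbp1 (−0.30), Smad1 (0.49) and the BMP receptor gene Bmpr2 (−0.96). The medians were 0.02 for the pathway and 0.21 for the partners.

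Genes for other transmitters and peptides came next. Of 30 tested, 3 were at least 2-fold higher, namely the protease gene Pcsk5 (1.53), the peptide gene Npb (1.23) and Cbln2 (1.14), and 17 lower (median −2.54), beside 3.41% and 6.94% of all genes. Slc17a8, the vesicular glutamate transporter VGLUT3, was at 292 against 153 CPM (0.93, 0.85 to 1.01), in 96.3% of members and 51.1% of others after thinning. The GABA synthesis genes Gad2 (9.46 against 117 CPM, −3.63) and Gad1 (1.38 against 49.6 CPM, −5.17) were lower, as were the peptide genes Pdyn (−2.96), Crh (−3.35), Penk (−3.83), Sst (−5.21) and Trh. The prohormone convertase gene Pcsk2 (9.46 against 91.0 CPM, −3.27) and the granin gene Chga (45.3 against 248 CPM, −2.45) went with them.

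Of 65 genes for axon guidance and adhesion, 13 were at least 2-fold higher and 31 lower (median −0.96), beside 3.41% and 6.94% of all genes. Rtn4rl1, a Nogo receptor homolog, was at 31.1 against 1.54 CPM (4.34, 4.03 to 4.65), the netrin receptor gene Unc5c at 110 against 14.2 CPM (2.95), and the ephrin receptor genes Epha6 and Epha3 at 3.11 and 2.54. Of the teneurin genes, those higher were Tenm4 (101 against 25.7 CPM, 1.97), Tenm1 (1.74) and Tenm3 (1.47), and Tenm2 was at −0.98. The Slit receptor genes Robo1 (−3.48) and Robo2 (−2.45), the GDNF receptor genes Gfra1 (13.0 against 184 CPM, −3.82) and Ret (−3.38), Alcam (−3.31), Pcdh10 (−3.30) and Epha7 (−2.52) were lower. Ret was at −5.03 in set 1 and −2.93 in set 2, Pcdh10 at −4.28 and −2.92, and Alcam at −2.64 and −3.75.

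Several of the differing genes are neighbours on the chromosome (positions from RefSeq for GRCm38.p6, the build of the files). Met lies on chr6:17463349-17573980. Of its listed neighbours, Cav2 (chr6:17281185-17289130) was at 52.0 against 14.9 CPM (1.80, 1.61 to 1.99), whereas Capza2 (0.43), St7 (0.20) and Cttnbp2 (0.00) were within 2-fold, and Cav1, between Cav2 and Met, was below 5 CPM with 5 UMIs in members. Zeb2 lies on chr2:44983512-45117442 and holds Zeb2os within its span. Arhgap15 (chr2:43748798-44395953) differed most of the listed neighbours, but Gtdc1, between Arhgap15 and Zeb2, was at 14.2 against 8.34 CPM (0.77) and Acvr2a at −0.48. In all, 2 of 7 tested neighbours on the list were at least 2-fold higher, beside 3.41% of all genes. Zeb2os (7.46) and the predicted gene Gm4876 (0.98) also lie in these stretches and were not on the list.

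A second stretch of chromosome 6 holds imprinted genes, which are expressed mainly from 1 parental allele. Of 31 tested imprinted genes 2 were at least 2-fold higher and 4 lower (median 0.05), shares of a few genes beside 3.41% and 6.94% of all genes, so imprinted genes as a group are not set apart by these counts. Calcr (chr6:3685678-3764713) and Peg10 (chr6:4747306-4760517; 561 against 101 CPM, 2.48, 2.42 to 2.54) were higher and Asb4 (chr6:5383386-5433022) was at 5.52 against 182 CPM (−5.04, −5.63 to −4.51). Sgce, next to Peg10, was at 21.7 against 19.5 CPM (0.15, −0.14 to 0.43), and Casd1 (0.36) and Ppp1r9a (−0.37), between these genes, were within 2-fold. Nap1l5 (chr6:58905233-58907126) was at 5013 against 2712 CPM (0.89, 0.87 to 0.90). It lies within the span of Herc3, which was at 315 against 69.4 CPM (2.18) and was picked after its values were seen. Dlk1 was at 47.1 against 263 CPM (−2.48), with 35.6% of its member UMIs in 1 cell, and at −3.11 without that cell.

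The start sites of a few of these genes are shown because ZEB2 binds E-box motifs of the letters CACCTG. The sequences are the 250 bases before the start, from RefSeq (GRCm38.p6), with CACCTG or its reverse complement CAGGTG in capitals. Tacr3 is shown as the peptide receptor with the highest ratio (chr3:134828757-134829006, plus strand), and held no match. Calcr (chr6:3764714-3764963, minus strand, the outer of 2 listed starts) and Kcna4 (chr2:107290339-107290588, plus strand) are genes higher in members, with a match. The inner Calcr start and the P2ry1 start, not shown, held none in the same window. Gad1 (chr2:70561879-70562128, plus strand) and Nos1 (chr5:117866589-117866838, plus strand) are genes lower in members, with a match.
Tacr3: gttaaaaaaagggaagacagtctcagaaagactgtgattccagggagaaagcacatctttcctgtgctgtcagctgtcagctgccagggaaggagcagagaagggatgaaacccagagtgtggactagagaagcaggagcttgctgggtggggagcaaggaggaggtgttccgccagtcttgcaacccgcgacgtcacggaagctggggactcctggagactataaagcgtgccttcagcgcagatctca
Calcr: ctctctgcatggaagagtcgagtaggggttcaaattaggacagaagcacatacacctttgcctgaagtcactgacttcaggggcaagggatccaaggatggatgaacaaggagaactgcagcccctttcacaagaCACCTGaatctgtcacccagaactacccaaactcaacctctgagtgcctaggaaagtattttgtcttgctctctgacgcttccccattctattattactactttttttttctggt
Kcna4: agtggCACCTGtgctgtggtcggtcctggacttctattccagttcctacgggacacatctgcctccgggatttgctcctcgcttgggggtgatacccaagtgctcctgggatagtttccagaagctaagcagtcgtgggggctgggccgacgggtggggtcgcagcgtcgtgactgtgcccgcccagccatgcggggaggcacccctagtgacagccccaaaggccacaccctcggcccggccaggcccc
Gad1: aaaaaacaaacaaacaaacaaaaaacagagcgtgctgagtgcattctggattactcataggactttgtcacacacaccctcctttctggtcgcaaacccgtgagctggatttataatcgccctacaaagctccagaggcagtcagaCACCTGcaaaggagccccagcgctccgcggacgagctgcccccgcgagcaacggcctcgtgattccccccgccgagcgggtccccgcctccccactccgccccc
Nos1: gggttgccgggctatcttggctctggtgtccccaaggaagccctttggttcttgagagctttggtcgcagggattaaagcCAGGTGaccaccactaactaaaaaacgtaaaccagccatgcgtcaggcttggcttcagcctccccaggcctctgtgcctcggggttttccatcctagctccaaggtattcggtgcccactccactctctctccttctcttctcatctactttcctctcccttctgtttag
The matches began at positions −115, −245, −104 and −170 from the start in Calcr, Kcna4, Gad1 and Nos1. The 6 letters also match the general E-box pattern CANNTG. Of all 32851 listed promoters, taken from 250 bases before to 50 after the start, 20.2% held a match on either strand, so a match in 1 promoter is common. A comparison of the share between genes higher and lower in members was void, because promoters were listed for 86 of 116 higher genes and 257 of 341 lower genes, fewer than 80% of either set.

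A second comparison was made with the cells that hold at least 4 UMIs of Rorb and Nr2f2 together and at least 1 of each. There were 234 such cells that were no members, and 7 members also met that rule. Of 10230 genes at 5 CPM or more in either group, 340 (3.32%) were at least 2-fold higher in members and 577 (5.64%) lower. At least 4-fold higher were 114 (1.11%) and at least 4-fold lower 226 (2.21%). Of the 116 genes 4-fold higher against all other cells, Met and Zeb2 left out, 109 were also at least 2-fold higher here, and of the 341 lower genes 301 were at least 2-fold lower. Both comparisons use the same members, and the Rorb Nr2f2 cells are among all other cells, so part of this overlap is built in. Several lists changed with the comparison. The subtype transcription factors had 5 of 19 tested genes at least 2-fold higher and 6 lower, with a median of 0.43. Rorb and Nr2f2, which chose these cells, are on that list, so their part in its counts was fixed by the choice. The median of −2.05 against all other cells was over 29 tested genes, so the medians cover different genes. Among transmitters and peptides 2 of 26 were higher and 13 lower (median −0.96 in place of −2.54), and among receptors for monoamines, orexin, histamine and acetylcholine 2 of 15 were higher and 7 lower (−0.98 in place of −2.25). The peptide, purine and lipid receptors had 8 of 15 higher and 3 lower (median 1.32), beside a median of 0.08 over all genes. Slc17a8 itself, Gad2 and Vsnl1 were at ratios of −0.12, −0.43 and −0.27 against the Rorb Nr2f2 cells. Calcr (5.82) and Chrm2 (5.23) differed more from these cells than from all cells, and Cited1 (1.00), Lpar1 (1.36) and Tacr3 (4.22) differed less. Ramp3 turned sign, from 1.07 to −0.29. Slc6a4 (−1.59) and Gch1 (−2.05) were lower in members here too. Intervals of these ratios cover counting error, and the groups share the same libraries.

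Members varied among themselves. S100b ranged from 0 CPM at the 10th percentile of members through 198 CPM at the median to 1056 CPM at the 90th percentile, and was counted in 87.3% of members. Slc6a4 spread from 330 to 1022 CPM between the 10th and 90th percentiles, and Tph2 from 1112 to 2462 CPM. Between the barcode sets, the S100b level of members was at 289 CPM in set 1 and 469 CPM in set 2, a log2 difference of 0.70 (0.56 to 0.85), and the other cells differed by 0.62 the same way. In members 17 of the 4027 genes with 2 or more UMIs per member differed at least 2-fold between sets, and in the other cells 16 did. S100b thus varied widely within each set.

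**Figure D4:**
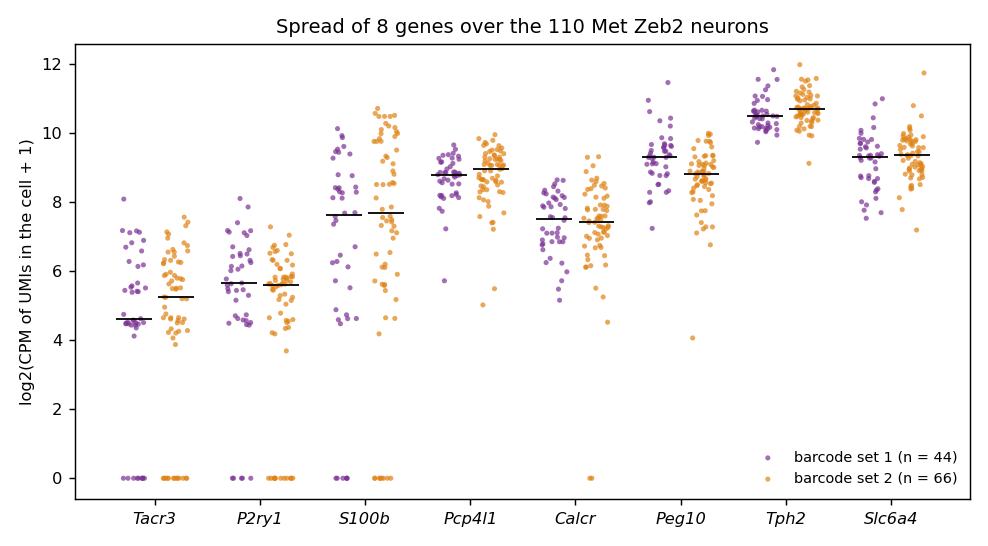
Log2 of CPM plus 1 in each of the 110 members for 8 genes, with barcode set 1 in purple and set 2 in orange; black lines are medians. S100b spreads from no UMI to 1674 CPM, whereas every member holds UMIs of Pcp4l1, Peg10, Tph2 and Slc6a4.

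A few members stood apart. The summed level of the 341 genes 4-fold lower in members was 711 to 14337 CPM in single members. Its median was 1357 and its 90th percentile 2269 CPM. In other cells the median was 14526 CPM, a gap that was built in because the genes were picked as low in these members. The 2 members called doublets were at 9160 and 10106 CPM, and 2 further members at 10254 and 14337 CPM were not called. Also not called were members at 7540, 5594 and 5168 CPM, among others above the 90th percentile. The member at 5594 CPM held 28 Zeb2 UMIs but none of Tacr3, Tecrl, P2ry1, S100b or Calcr, with Nr2f2 at 739 CPM. Of the further markers it held only Arhgap15. Without the called doublets the log2 ratio of Htr1b moved from −4.50 to −5.66, that of Gad2 from −3.63 to −4.18 and that of Glra2 from −4.40 to −5.16, and 129 genes were 4-fold higher and 358 lower. The part of mixed cells in the remaining values was not tested.

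Transcripts of other cell types were low, in a table from which the authors had removed libraries with outlying glial markers or low Fev. Of 30 marker genes of oligodendrocytes, astrocytes, ependymal cells, microglia, vessels and blood, 6 reached 5 CPM in either group, and none was 2-fold higher in members. Off these lists, the oligodendrocyte gene Mobp was at 2.09 (38 UMIs in 14 members, 42.1% of them in 1, with 3.15 in set 1 and 0.17 in set 2), and Igfbp7, a gene of vessel cells, at 4.34 (26 UMIs in 3 members, 88.5% of them in 1). Summed oligodendrocyte markers had a median of 23.0 CPM per member (0 to 1593) and 26.0 CPM per other cell (0 to 940), with Mbp at a log2 ratio of 0.41. Summed astrocyte markers were at 195 CPM (25.6 to 485) against 366 CPM (0 to 1456), carried mostly by Aldoc (180 against 402 CPM), and the astrocyte genes Gfap and Aldh1l1 were counted at 3 and 1 UMIs in all members, beside 2038 UMIs of S100b. The ependymal markers had a median of 0 CPM per member (0 to 73.3) and 14.2 CPM per other cell (0 to 272), and Tmem212 was at 0 in members. The microglial genes Cx3cr1, Csf1r, C1qa and C1qb and the globin gene Hbb-bs were at 0 in members, and the list with the vessel genes had a median of 0 CPM in both groups, with 1 member at 2097 CPM that held all 21 UMIs of Cldn5. None of 8 tested immediate early genes was past 2-fold, with Fos at 91.3 against 95.1 CPM.

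The same genes were then read in the manually sorted cells, which came from other mice and a full-length method. Levels here are CPM of reads per cell, in 10 P2ry1-cre caudal cells and 60 others. Depth was 3999547 to 6416860 reads in the P2ry1-cre cells and 756872 to 7664103 in the others, and the P2ry1-cre cells held fewer genes, with a median of 7947 against 9372. P2ry1 and Fev chose these cells through their drivers and are no findings. Zeb2 was at 9.04 to 192 CPM in the P2ry1-cre cells and at most 0.730 CPM in the others, and Met was at 0 to 161 CPM (median 86.8, read in 9 of 10 cells) and at most 3.45 CPM in the others.

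Of the 116 genes 4-fold higher in the 10X members, Met and Zeb2 left out, 110 were in the manual table and 103 had reads. The mean over the P2ry1-cre cells was above the mean of the others for 95 of these 103 (92.2%) and below it for 8, beside 36.1% of all 17421 genes with reads. Of the 341 lower genes, 319 had reads, and the mean was lower in 316 (99.1%) and higher in 3, beside 63.9% of all genes. With the filter fixed for this comparison, a median of at least 5 CPM in either group, 66 higher genes and 149 lower genes remained, and all 66 had a higher and all 149 a lower median in the P2ry1-cre cells. Medians were higher for 41.1% and lower for 58.9% of all 8386 genes that passed, and at least 2-fold higher for 8.37% and lower for 29.4%. Genes can pass through the group where they are high, and so the count over those that passed is a description only. Of the 110 higher genes in the table, 12 had no reads in any P2ry1-cre cell. In 7 of these no cell of the 70 had reads, and Ptcra, Retn, Igfbp7, Mobp and Npas2 had reads in other cells only. Against the 21 other cells of day 63 alone, the mean was higher for 93 of 101 higher genes with reads and lower for 314 of 318 lower genes, beside 39.7% and 60.3% of all genes.

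Tacr3 was at 0 to 78.4 CPM in the P2ry1-cre cells (median 18.4, read in 9 of 10) and had no reads in any of the 60 others. Tecrl was at 0 to 158 CPM (median 56.4, read in 8) and at most 6.38 CPM in the others, and Arhgap15 at 0 to 64.5 CPM (median 34.3, read in 9), with reads in 1 other cell. Tacr3 and Arhgap15 thus had no reads in 1 P2ry1-cre cell and Tecrl in 2, so none of them separated the groups fully. S100b was at 11.2 to 798 CPM (median 434) and at 0 to 163 CPM in the others (median 0.170), with 7 P2ry1-cre cells above all others. S1pr3 was at 0 to 247 CPM (median 62.7) and had reads in 7 of the 60 others, up to 76.3 CPM in a Slc6a4-cre caudal cell. Rxfp1 was read in all 10 cells at 0.378 to 246 CPM (median 30.6), and in 6 others up to 29.7 CPM. Calcr was at 8.57 to 861 CPM (median 229) but reached 573 CPM among the others, so its groups overlap.

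Chrm2 was read in all 10 P2ry1-cre cells at 3.25 to 189 CPM (median 60.5), in none of the 16 caudal cells of the other drivers, and in 15 of the 60 others up to 138 CPM. Grm5 was at 34.2 to 474 CPM (median 186) and at most 158 CPM in the others. Oprm1 and Chrm1 were read in only 4 and 2 of the P2ry1-cre cells, with medians of 0 in both groups. Htr1b and Htr1d had no reads in any P2ry1-cre cell, and were read in 53 and 45 of the 60 others. Hcrtr1 had reads in 1 P2ry1-cre cell, at 0.312 CPM, and was at a median of 143 CPM in the others (57 of 60 cells with reads). Zeb1 was read in 3 of 10 cells and in 59 of 60 others.

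Full separation was rare. All 10 P2ry1-cre cells lay above all 60 others in 3 of 8386 genes (0.0358%), namely Zeb2, Pcp4l1 (574 to 1619 CPM against at most 323) and Nap1l5 (6355 to 9312 CPM against at most 5915). All lay below in 2 genes (0.0238%), Gch1 (2.65 to 307.1 CPM against at least 307.5, a gap that is narrow beside the spread of either group) and the synapsin gene Syn2 (0 to 105 CPM against at least 115). Nap1l5 was within 2-fold in the 10X table and was separated here by a median ratio of 1.30 on the log2(CPM + 1) scale. Slc6a4 was at 64.8 to 2538 CPM (median 845) and at 614 to 7234 CPM in the others (median 3676), and Tph2 at 2720.4 to 12509.5 CPM (median 6676) and 3073 to 21204 CPM (median 10081.5), so the groups overlap for both.

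**Figure D5:**
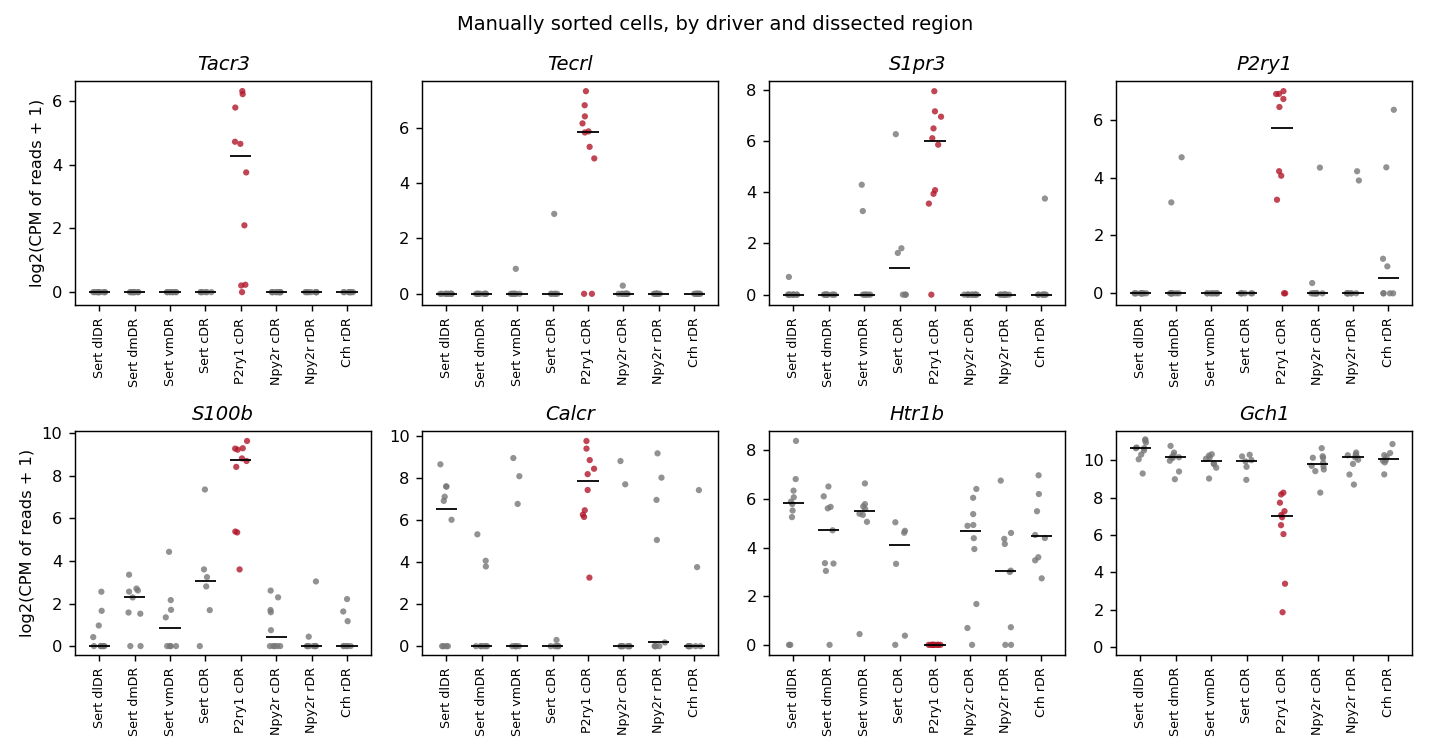
Log2 of CPM plus 1 for 8 genes in the 70 manually sorted cells, by Cre driver and dissected region (dl dorsolateral, dm dorsomedial, vm ventromedial, c caudal, r rostral); the 10 P2ry1-cre cells are red, and black lines are medians. Tacr3 is read only in P2ry1-cre cells, Htr1b in none of them, and Gch1 is at 307.1 CPM or lower in each.

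The caudal raphe also gave 16 cells of other drivers, 6 Slc6a4-cre and 10 Npy2r-cre. Against these alone, all 10 P2ry1-cre cells lay above in 5 of 8304 genes (0.0602%) and below in 10 (0.12%). Nr2f2 was at 31.5 to 121 CPM in the P2ry1-cre cells (median 92.0), close to the median of 91.2 CPM in the 6 Slc6a4-cre caudal cells, with 2.85 CPM in the Npy2r-cre ones. Cited1 was likewise at medians of 1358 and 979 CPM in the P2ry1-cre and Slc6a4-cre caudal cells, and Slc17a8 at 128 and 112 CPM. Tacr3, Met and Arhgap15 had no reads in any of the 16 caudal cells. The 6 Slc6a4-cre caudal cells were of day 63, within the ages of the P2ry1-cre cells, and the Npy2r-cre ones of day 77 or 87.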

How the data were processed

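UMI counts per gene and cell of the 10X table were made by the authors with Cell Ranger 3.0.2 on mm10 and deposited without normalization. The authors had first removed rare genes and libraries with few genes, outlying glial markers, low Fev, high mitochondrial or low ribosomal shares, or outlying UMI or gene numbers, which limits what the table can show of glia, doublets and cells low in Fev. Read counts of the manually sorted cells were made by the authors with STAR 2.5.4 on mm10 and deposited without normalization. Both versions come from the submitters' processing notes. The columns of the manual table were matched to samples by title. Since neither run nor animal is named in the 10X columns, its cells count as 1 sample, which allows no test.

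Counts were summed over cells and scaled to CPM. Ratios have exact conditional binomial intervals, CPM exact Poisson and shares Clopper-Pearson intervals, all at 95%, and cover counting error only. A ratio against no UMI used a floor of 3 counts. Genes needed 5 CPM in either group. Cells were also thinned to 20000 UMIs, and doublets were called with Scrublet in scanpy at an expected rate of 5%. Counts simulated for members and others over 9914 genes gave the right direction for 200 of 200 changed genes, with intervals that covered the truth in 94.3%. The simulation drew Poisson counts, so coverage near 95% was built in, and it left out the spread between cells. Medians over manually sorted cells were compared as log2(CPM + 1). Members and the 21 gene lists (513 genes) were chosen with earlier results of these data known. Named are the markers, list members, and the 15 highest and 15 lowest ratios at 10 CPM or more. Genes named outside this rule were picked after their values were seen. Alternatives changed the rule, the floor, the depth, the cells and the scaling. Computation used Python 3.11.15 with numpy, scipy, pandas and matplotlib. The histology and electrophysiology were not analysed here. Some genes of the lists are not reported here by name.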

Additional observations from a re-analysis of the deposited data

Results flagged for a closer look

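Gipr had 1 P2ry1-cre caudal cell far below the rest, at 1.40 CPM where the other 9 cells lay between 18.9 and 131 CPM. On the log2(CPM + 1) scale its gap to the nearest cell was 0.53 of the whole range of the 10 cells, above Dixon's 95% critical value for 10 cells. The check was run on 13 genes, 1 of which was past it, and chance alone marks about 5% of groups. The check treats the cells as independent, although some may share a mouse. The same cell also had no reads of Met or Tecrl, 0.156 CPM of Tacr3 and the lowest Calcr of the 10 cells (8.57 CPM), but 81.0 CPM of Zeb2 and 452 CPM of S100b.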

How the results depend on the processing

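No paired analysis was possible because the replicate numbers of the manually sorted cells only count cells, and the 10X table carries none. The number of members was 110 with a threshold of 3 UMIs, 108 with 6 UMIs, 108 without called doublets and 92 on thinned cells. A floor of 1 CPM gave 667 genes 2-fold higher, 1323 lower, 226 genes 4-fold higher and 589 lower, and a floor of 20 CPM gave 181, 338, 64 and 150. Against Rorb Nr2f2 cells 226 genes were 4-fold lower. The other alternatives gave counts within 1.5 times those reported, including 1 added after seeing the data, which left out for each gene the member with the most UMIs (290, 814, 104 and 385 genes). Single ratios moved more than counts. Of 199 named genes past 2-fold, 64 lay outside their counting interval on barcode set 1 alone, 28 on set 2 alone and 40 on thinned cells. The number was 23 as means of single cells, 17 without the top member and 8 without called doublets. Against Rorb Nr2f2 cells it was 115, besides 3 that turned sign. In 58 genes a set alone differed from the pooled ratio by over 1.5-fold, and all 199 kept their sign in both sets. Beside those given with their set values, these include Cnr1, Oxtr, Npy2r, Htr1d, Cacna1i, Esr2, Gabre, Gad2, Penk and Bcl11a. Of the 199, 3 turned sign, all of them against Rorb Nr2f2 cells: Necab1 (1.34), Zfp536 (0.41) and Ramp3 (−0.29). In the manually sorted cells, the caudal cells of other drivers gave 5 genes with all P2ry1-cre cells above, 2 of them 4-fold higher in the 10X table, and 10 with all below. A median of at least 20 CPM left 88 of the 149 lower genes, and median-of-ratios scaling 1 gene with all cells below. Without the cells of day 63 or day 74, 4 genes had all cells below. Without those of day 64, 5 had all above, 2 of them 4-fold higher in the 10X table, and without day 66 also 2 such genes. Against the 21 other cells of day 63 alone, added after seeing the data, 7 had all above, 3 of them 4-fold higher in the 10X table, and 5 all below. These counts of separated genes rest on single cells, and the cause of their changes was not tested. The means over manually sorted cells with no filter were also added after seeing the data. Intervals cover counting error only, and genes with few UMIs in the shallower members are the least precise.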
